A study of Mus musculus with 8 samples.

Results

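The 32 genes described here make up an unfolded protein response set of the endoplasmic reticulum (ER), taken from a fixed list of chaperones, disulfide isomerases, stress sensors, degradation factors and components of protein import and export. The brightest probe stood for each gene, and all 32 were among the 19023 genes tested. They were measured in TEC100.4, an immortalized mouse line whose labels give cortical thymic epithelial cells as its origin. Mutant TFII-I, the product of Gtf2i and a transcription factor, could be induced by doxycycline in both lines compared, as the β isoform in one and as the δ isoform in the other. Cultures with and without 24 h of doxycycline made up 4 groups, each of 2 one-colour arrays. The genotype label of the untreated samples names the wild type protein of the same isoform, but the titles give the mutant line and no doxycycline. The sources used here do not say whether each line was a clone or a pool of cells. No line without the mutant was treated, so doxycycline and the induced protein cannot be told apart.

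The unfolded protein response adjusts the folding capacity of the endoplasmic reticulum to the load of secretory and membrane proteins. The sensors IRE1, ATF6 and PERK sit in its membrane. IRE1, encoded by Ern1, splices Xbp1 mRNA to give an active transcription factor, ATF6 is cleaved to one, and PERK slows translation while the translation of ATF4 rises. ATF6 and XBP1 act with NF-Y on the ER stress response element (ERSE) in the promoters of chaperone genes, and TFII-I has been described as a further protein that binds this element. Hspa5, Hsp90b1 and Pdia3 were on the list as described TFII-I targets. Thymic cortical epithelium is known for the antigen processing that displays self peptides to thymocytes, which runs through the peptide-loading chaperones of this compartment.

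The elements themselves are shown because the described route from TFII-I to these genes runs through them. Promoter sequences of RefSeq (assembly GRCm38.p6), from 250 bases before to 50 bases after the gene start, were at hand for 27 of the 32 members. They were searched on both strands for the ERSE (CCAAT, any 9 bases, CCACG), for the related ERSE-II (ATTGG, any 1 base, CCACG) and for TGACGTGG, the core of the element bound by XBP1 (UPRE). Only exact matches of these letters were counted. In no member did matches of different motifs overlap. The ERSE was found in 9 of the 27 genes (33.3%) against 0.137% of all 27025 genes with such a sequence. These genes helped define the element, so this share is no independent result. The ERSE-II was found in Dnajb11 and Herpud1 (7.41% against 0.0444%) and the UPRE in Sec24d (3.7% against 0.714%). Pdia3, the remaining described TFII-I target, had no exact match of any of the 3 motifs. Its window holds CCAAT, 9 bases and CCACA, which differs from the ERSE in the last letter. Each site is printed 5′ to 3′ along the strand that carries it, with capitals marking the fixed letters of the motif. The first base is counted along the strand of the gene. For the sites on the opposite strand (Calr, Creld2, Derl3 and the + strand site of Hsp90b1) it is therefore the last base printed.
Hspa5 (chr2, + strand, first base 65 before the gene start): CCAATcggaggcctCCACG
Hsp90b1 (chr10, - strand, first base 212 before the gene start): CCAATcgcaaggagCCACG
Hsp90b1 (chr10, + strand, first base 107 before the gene start): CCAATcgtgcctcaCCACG
Calr (chr8, + strand, first base 162 before the gene start): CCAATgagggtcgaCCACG
Canx (chr11, - strand, first base 145 before the gene start): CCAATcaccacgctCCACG
Creld2 (chr15, - strand, first base 126 before the gene start): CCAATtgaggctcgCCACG
Derl3 (chr10, - strand, first base 156 before the gene start): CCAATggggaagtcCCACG
Dnajc3 (chr14, + strand, first base 105 before the gene start): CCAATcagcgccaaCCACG
Pdia6 (chr12, + strand, first base 98 before the gene start): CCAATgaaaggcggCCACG
Syvn1 (chr19, + strand, first base 44 before the gene start): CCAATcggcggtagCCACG
Herpud1, ERSE-II (chr8, + strand, first base 52 before the gene start): ATTGGgCCACG
Dnajb11, ERSE-II (chr16, + strand, first base 7 after the gene start): ATTGGcCCACG
Sec24d, UPRE (chr3, + strand, first base 26 before the gene start): TGACGTGG

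The 250 bases before the gene start are given for Hspa5 and Hsp90b1, both described targets of TFII-I, and for Dnajc3 and Sec24d, members that fell with doxycycline and hold a match. Each is written along the strand of its gene, with the motif letters in capitals, also where the motif reads on the opposite strand.
Hspa5, chr2:34771840-34772089, + strand: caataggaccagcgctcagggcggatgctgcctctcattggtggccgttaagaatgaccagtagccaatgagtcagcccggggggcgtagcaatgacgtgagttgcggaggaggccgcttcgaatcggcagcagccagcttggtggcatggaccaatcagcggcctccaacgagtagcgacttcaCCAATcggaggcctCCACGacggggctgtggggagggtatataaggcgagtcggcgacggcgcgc
Hsp90b1, chr10:86705445-86705694, - strand: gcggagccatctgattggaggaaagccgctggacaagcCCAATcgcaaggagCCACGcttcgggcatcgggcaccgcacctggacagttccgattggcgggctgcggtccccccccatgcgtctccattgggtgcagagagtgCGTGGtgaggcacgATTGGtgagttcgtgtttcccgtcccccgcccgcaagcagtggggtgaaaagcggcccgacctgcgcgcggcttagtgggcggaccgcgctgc
Dnajc3, chr14:118937682-118937931, + strand: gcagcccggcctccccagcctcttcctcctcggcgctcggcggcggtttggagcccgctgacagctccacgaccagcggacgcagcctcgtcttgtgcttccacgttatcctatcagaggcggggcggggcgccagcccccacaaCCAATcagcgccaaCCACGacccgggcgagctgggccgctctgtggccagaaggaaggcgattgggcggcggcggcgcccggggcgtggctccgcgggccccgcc
Sec24d, chr3:123267246-123267495, + strand: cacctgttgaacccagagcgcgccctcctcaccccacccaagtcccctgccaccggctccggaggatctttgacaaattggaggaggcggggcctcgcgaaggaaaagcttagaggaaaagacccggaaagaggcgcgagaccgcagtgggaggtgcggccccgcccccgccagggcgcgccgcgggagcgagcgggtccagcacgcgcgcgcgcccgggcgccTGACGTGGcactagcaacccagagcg

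Some facts of the arrays bear on every result below. The 8 arrays shared 1 slide whose first row held the treated and whose second row held the untreated samples, so treatment and row cannot be told apart. Between 43345 and 45080 probes were well above background with doxycycline, and between 39512 and 40698 without. The untreated δ array called replicate 1 stood apart, with 77 of its 1008 tiles of 8 by 8 spots off by over 0.3 at the median (log2) against at most 7 on any other array, and the probes of Hspa5, Hyou1 and Sec61a1 had a spot in such a tile. Of 13 cortical thymic epithelial markers, 6 were well above background on all arrays (Foxn1, Prss16, Ccl25, Cxcl12, Krt8 and Krt18). Psmb11, Enpep and Cd83 were above it on none, while 9 of 10 fibroblast markers were above it throughout. The brightest probe of Gtf2i differed with doxycycline by 0.11 ± 0.12 (SE) in the β line and by 0.09 ± 0.12 in the δ line. The limma adjusted p was 0.716 and 0.725. Of its dimmer probes, A_55_P2040907 read -2.13 and -2.56 untreated and -1.05 and -1.01 treated in the β line. Its δ values were -1.67 and -1.93 untreated and -1.80 and -1.53 treated. The β values of A_52_P442585 were -0.22 and -0.32 untreated and -0.10 and -0.14 treated. In the δ line this probe read 0.40 and 0.28 untreated and 0.43 and 0.36 treated. No label states that replicate arrays stem from separate cultures, so the p-values rest on a spread between samples that may be technical.

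All 32 members were well above background on all 8 arrays, and 21 of them were among the brightest 25% of genes by signal. Values below are log2 intensities relative to the 75th percentile of their array, so a difference of 1 is a doubling, and are not compared between probes. Differences were tested by limma over all genes, with an adjusted p under 0.05 as the threshold.

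With doxycycline, averaged over both lines, 5 of the 32 members fell and none rose: the secreted factor Manf, the vesicle coat gene Sec24d, the chaperone genes Dnajc3 and Sdf2l1 and the degradation gene Edem1. The falls were between 1.26-fold and 1.49-fold. The 5 members are 15.6% of the list, while 1.58% of all genes were past the threshold and lower and 3.12% in either direction. The median member differed by -0.12 against 0.02 over all genes, and 26 of 32 members lay below zero against 46.1% of all genes. Among the brightest 25% of genes the median was also 0.02 and 1.07% fell. Of the list, 11 members (34.4%) had both treated arrays below both untreated arrays in each line, against 10.6% of all genes, and Atf6 alone had them above in each line, against 11.3%. The list was drawn up with earlier results of these data known, so no p is given for it as a whole.

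Within a single line no member passed. In the β line 0 of 32 members were called by limma, while 0.247% of all genes were, and 8 members had an unadjusted p under 0.05, all lower, against 8.66% of all genes. In the δ line 0 of 32 members were called against 0.0736% of all genes, and again 8 were lower at an unadjusted p under 0.05, against 6.32%. That share rests on single arrays: without untreated δ replicate 2, 1621 genes were called in place of 14, 1340 of them higher, and among the members Manf was called, lower. The median member differed by -0.06 in the β line and by -0.19 in the δ line, where the medians of all genes were 0.03 and 0. Below zero were 21 members in the β line (44.2% of all genes) and 27 in the δ line (49.9%), of which 20 lay below zero in both (27.7%). Both treated arrays lay below both untreated arrays in 13 members in the β line (20.3% of all genes) and in 21 in the δ line (27.6%), and above them in 3 (26.6%) and 2 (30.4%). By the brightest probe only 4 members lay above zero in both lines, Hsp90b1, Atf6, Herpud1 and Sel1l. Second probes differed by -0.18 (β) and -0.20 (δ) for Sel1l and by -0.05 (β) and 0.02 (δ) for Herpud1.

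**Figure D1:**
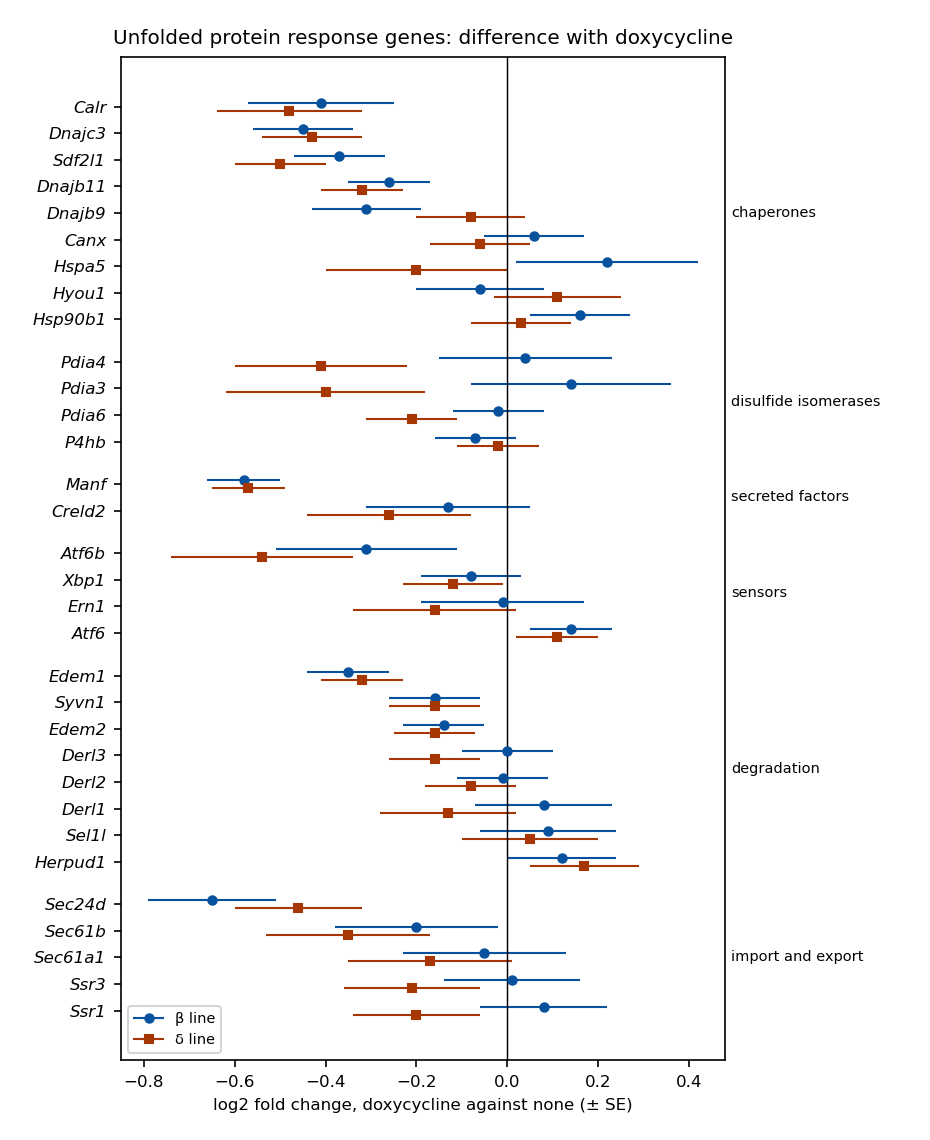
Log2 fold change with doxycycline against none for each of the 32 members, by role, in the β line (blue circles) and the δ line (red squares), with bars of 1 SE from the limma fit (2 arrays per group). Manf, Sec24d, Dnajc3, Sdf2l1 and Edem1 lie left of zero in both lines, while no point passed the threshold within a line.

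The secreted members are Manf and Creld2, small proteins held in or released from the reticulum when it is under stress. In the β line Manf read 4.31 and 4.40 on the untreated and 3.79 and 3.75 on the treated arrays. The δ line read 3.93 and 3.93 untreated and 3.35 and 3.37 treated. Within each line the groups were apart, and the untreated δ arrays lay between the untreated and treated β arrays. The fall was 1.49-fold over both lines (log2 fold change -0.57 ± 0.06 SE, limma adjusted p = 0.0159), with -0.58 ± 0.08 in the β line and -0.57 ± 0.08 in the δ line (adjusted p = 0.059 and 0.0974). A second probe of Manf, A_66_P135155, differed by -0.48 in the β line and -0.56 in the δ line, also without overlap between the arrays. The fall over both lines ranged from -0.60 to -0.52 over 17 alternatives and passed in 12 of them, but not with the slide column as a replicate block or when any 1 of the 4 treated arrays was left out (adjusted p between 0.00647 and 0.127 over the alternatives). Creld2 read 5.74 and 5.85 untreated and 5.67 and 5.67 treated in the β line, and 5.69 and 5.15 untreated and 5.18 and 5.14 treated in the δ line. Its untreated δ arrays differed from each other more than the treated from the untreated β arrays, and its mean effect of -0.19 ± 0.12 had an adjusted p of 0.406.

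Among the 9 chaperones, Dnajc3 and Sdf2l1 fell and 6 lay below zero over both lines. Dnajc3, which encodes the BiP co-chaperone P58IPK, read 1.19 and 1.34 untreated and 0.91 and 0.72 treated in the β line. Its δ values were 1.27 and 1.13 untreated and 0.80 and 0.74 treated. All treated arrays lay below all untreated arrays, and the fall was 1.35-fold (-0.44 ± 0.08, adjusted p = 0.0486). Sdf2l1, a component of the BiP chaperone complex, read 1.82 and 2.01 untreated and 1.51 and 1.58 treated in the β line. On the δ arrays it read 1.98 and 1.88 untreated and 1.42 and 1.45 treated. It too was lower on every treated array, and fell 1.35-fold (-0.44 ± 0.07, adjusted p = 0.0407).

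Calr, the calcium-binding lectin chaperone of newly made glycoproteins, read 5.38 and 5.12 untreated and 4.97 and 4.70 treated in the β line. δ values were 5.09 and 4.88 untreated and 4.41 and 4.60 treated. The groups were apart within each line, but the mean effect of -0.45 ± 0.11 missed the threshold (adjusted p = 0.0879). Dnajb11, a co-chaperone of BiP, read 3.76 and 3.82 untreated and 3.55 and 3.52 treated in the β line, and 3.51 and 3.36 untreated and 3.10 and 3.12 treated in the δ line. Its groups were apart within each line too (mean effect -0.29 ± 0.07, adjusted p = 0.0754). Dnajb9, which feeds back on IRE1, read 1.53 and 1.71 untreated and 1.19 and 1.42 treated in the β line but 1.54 and 1.52 untreated and 1.5 and 1.40 treated in the δ line. The groups were apart in both lines, by -0.31 ± 0.12 and -0.08 ± 0.12, with an adjusted p of 0.235 for the mean. Calnexin (Canx), the membrane-bound relative of Calr, had a mean effect of 0.00 ± 0.08.

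The described TFII-I targets did not pass in either line or over both. Hspa5, which encodes BiP, the main chaperone of the compartment, read 6.97 and 7.20 untreated and 7.30 and 7.30 treated in the β line. The δ line read 7.64 and 7.04 untreated and 7.14 and 7.15 treated. The difference was 0.22 ± 0.20 in the β line and -0.20 ± 0.20 in the δ line, with adjusted p of 0.641 and 0.638. The high untreated δ reading came from the array that stood apart, on which a spot of this probe lay in a deviant tile. Its other probes, A_55_P2617139 and A_55_P2617149, outside those tiles, read 5.57 and 5.17 on that array and 5.44 and 5.18 on the other untreated δ array, and differed with doxycycline by 0.07 and -0.11 in the β line and by -0.11 and -0.24 in the δ line. Hsp90b1, the reticulum's HSP90, read 7.09 and 7.10 untreated and 7.22 and 7.28 treated in the β line, where the groups were apart (0.16 ± 0.11, adjusted p = 0.521). Its δ values were 6.98 and 6.72 untreated and 6.90 and 6.85 treated, with the treated inside the untreated range (0.03 ± 0.11, adjusted p = 0.929). Hyou1, an exchange factor for BiP, read -0.72 and -0.68 untreated and -0.73 and -0.78 treated in the β line, and -1.15 and -0.77 untreated and -0.82 and -0.88 treated in the δ line. It too had a spot in a deviant tile, and its other kept probes differed in the δ line by -0.31 and -0.39, against 0.11 for the brightest.

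None of the 4 disulfide isomerases passed, and all lay below zero over both lines, at -0.18 to -0.04. Pdia3, which works with Calr and Canx on glycoproteins, read 3.72 and 4.36 untreated and 4.27 and 4.09 treated in the β line. On the δ arrays it read 4.68 and 4.48 untreated and 4.30 and 4.07 treated. The β arrays overlapped (0.14 ± 0.22, adjusted p = 0.815), and the δ arrays were apart (-0.40 ± 0.22, adjusted p = 0.418). A second probe of Pdia3, A_66_P113216, differed by -0.11 in the β line and -0.50 in the δ line. Pdia4, another isomerase, read 2.27 and 1.98 untreated and 2.22 and 2.12 treated in the β line, and 2.94 and 2.41 untreated and 2.28 and 2.25 treated in the δ line. It differed by 0.04 ± 0.19 in the β line and -0.41 ± 0.19 in the δ line (adjusted p = 0.949 and 0.371), with only the δ arrays apart. Pdia6 and P4hb, also isomerases, had mean effects of -0.12 ± 0.07 and -0.04 ± 0.07.

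**Figure D2:**
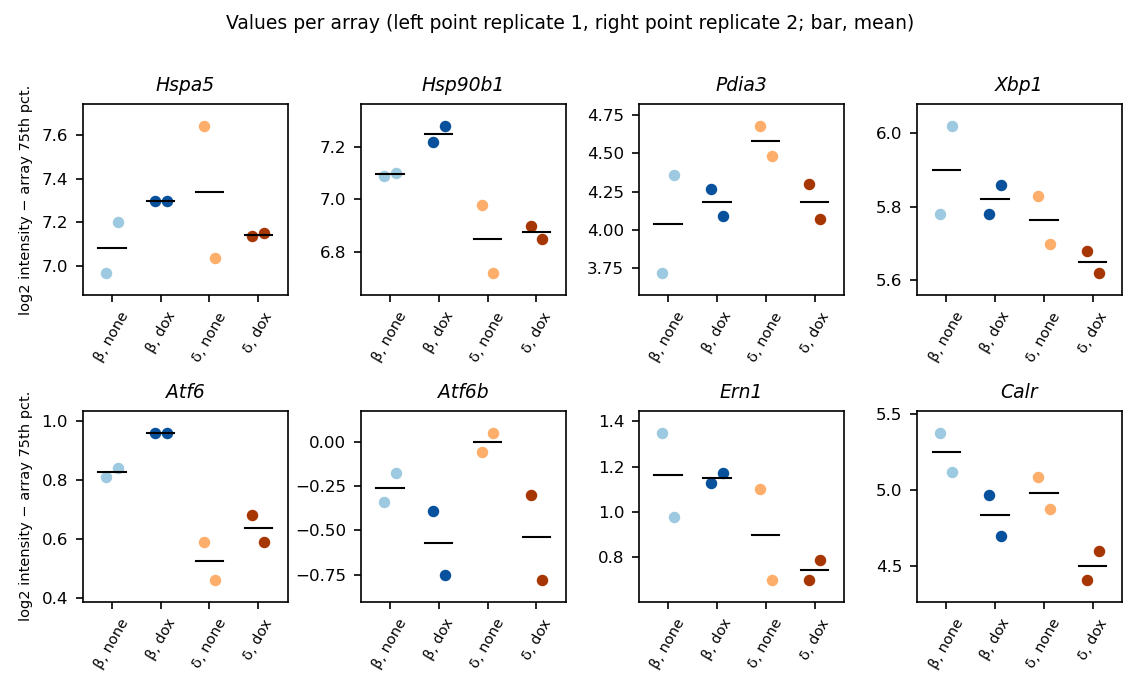
Log2 intensity minus the 75th percentile of its array for Hspa5, Hsp90b1, Pdia3, Xbp1, Atf6, Atf6b, Ern1 and Calr in each group, with 1 point per array (left, replicate 1) and a bar at the mean. The scale differs between panels. Hspa5 reads 7.64 and 7.04 on the untreated δ arrays against 7.14 and 7.15 on the treated ones, and Calr is lower on the treated arrays of each line.

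The 4 sensor and transcription factor genes did not pass either. Xbp1 read 5.78 and 6.02 untreated and 5.78 and 5.86 treated in the β line, and 5.83 and 5.70 untreated and 5.68 and 5.62 treated in the δ line (mean effect -0.10 ± 0.08, adjusted p = 0.498). Whether a probe separates the spliced from the unspliced message is not known here. Atf6 was the member that was higher on both treated arrays in each line: it read 0.81 and 0.84 untreated and 0.96 and 0.96 treated in the β line, and 0.59 and 0.46 untreated and 0.68 and 0.59 treated in the δ line, where 0.59 occurs on both sides after rounding. The mean effect was 0.12 ± 0.06 (adjusted p = 0.315). Its relative Atf6b read -0.34 and -0.18 untreated and -0.39 and -0.75 treated in the β line, and -0.06 and 0.05 untreated and -0.30 and -0.78 treated in the δ line. The treated arrays lay lower in both lines but up to 0.48 apart, and the mean effect of -0.42 ± 0.14 did not pass (adjusted p = 0.151). Ern1 read 1.35 and 0.98 untreated and 1.13 and 1.17 treated in the β line, and 1.1 and 0.70 untreated and 0.70 and 0.79 treated in the δ line, with the treated arrays inside or at the edge of the untreated range (mean effect -0.09 ± 0.12, adjusted p = 0.713).

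Of the 8 degradation genes only Edem1 passed. Edem1, which takes misfolded glycoproteins out of the folding cycle, read 2.1 and 2.14 untreated and 1.79 and 1.75 treated in the β line. δ values were 2.03 and 2.08 untreated and 1.77 and 1.69 treated. Every treated array lay below every untreated array, and the fall was 1.26-fold (-0.34 ± 0.06, adjusted p = 0.0468). A second probe, A_52_P354520, differed by -0.34 in the β line and by -0.10 in the δ line. Its relative Edem2 read -0.95 and -1.02 untreated and -1.08 and -1.17 treated in the β line, and -0.61 and -0.74 untreated and -0.80 and -0.86 treated in the δ line (mean effect -0.15 ± 0.07, adjusted p = 0.252). Herpud1, a scaffold of the degradation complex, read 3.57 and 3.87 untreated and 3.85 and 3.83 treated in the β line, and 3.22 and 3.17 untreated and 3.36 and 3.36 treated in the δ line. By its brightest probe it was the highest member over both lines, at 0.14 ± 0.08 (adjusted p = 0.37). A second probe, A_55_P2810587, differed by -0.05 in the β line and by 0.02 in the δ line. Sel1l, the adaptor of the ligase complex, read 3.66 and 4.04 untreated and 3.89 and 3.99 treated in the β line, and 4.11 and 4.0 untreated and 4.18 and 4.04 treated in the δ line. A second probe of Sel1l, A_51_P155675, differed by -0.18 in the β line and by -0.20 in the δ line. The ligase gene Syvn1 differed by -0.16 ± 0.07. The derlin genes Derl1, Derl2 and Derl3, whose products are membrane factors of the same route, differed by -0.03, -0.04 and -0.08.

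Of the 5 genes of protein import and export, Sec24d, which encodes a cargo-binding subunit of the COPII coat that buds from the reticulum, fell 1.47-fold. It read 2.02 and 2.25 untreated and 1.34 and 1.63 treated in the β line. The δ line read 2.16 and 2.02 untreated and 1.69 and 1.57 treated. All treated arrays lay below all untreated arrays (mean effect -0.55 ± 0.10, adjusted p = 0.0486). The translocon genes Sec61b and Sec61a1 differed by -0.28 ± 0.13 and -0.11 ± 0.13, and the translocon-associated Ssr1 and Ssr3 by -0.06 ± 0.10 and -0.10 ± 0.11, with adjusted p of 0.269 or more.

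**Figure D3:**
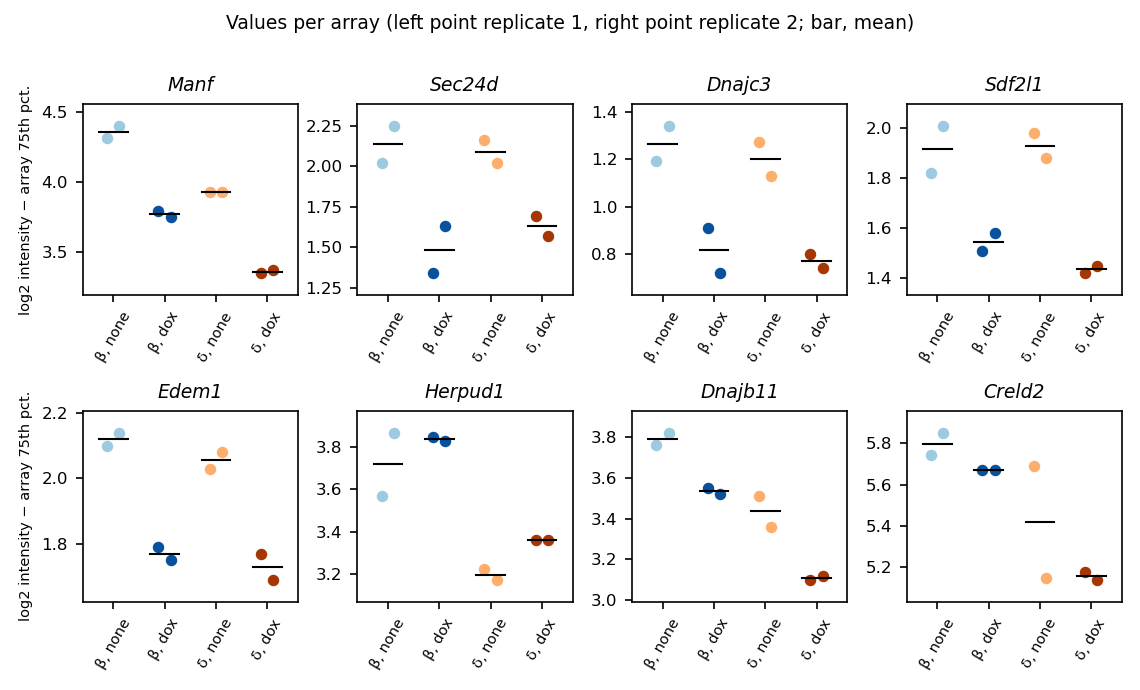
Log2 intensity minus the 75th percentile of its array for the 7 members past the threshold in some comparison (Manf, Sec24d, Dnajc3, Sdf2l1, Edem1, Herpud1 and Dnajb11) and for Creld2, with 1 point per array (left, replicate 1) and a bar at the mean. For Sec24d, Dnajc3, Sdf2l1 and Edem1 both treated groups lie below both untreated groups, while Manf is lower in the δ line at each treatment.

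The number of falls called depended on single arrays. Leaving out any 1 treated array left 0 of 32 members past the threshold over both lines, and leaving out an untreated array left 1 (either β array or δ replicate 1; Manf each time) or 7 (δ replicate 2). Over all genes the 593 calls became 5 to 36 without a treated array and 2273 without untreated δ replicate 2, 1674 of them higher. With the slide column as a replicate block 0 passed, with each array centred on its median 1 (Manf), and with the mean over probes 2 (Manf and Sdf2l1). Sdf2l1 passed in 8 of 17 alternatives, Edem1 and Sec24d in 7 and Dnajc3 in 6, with the highest adjusted p of each between 0.20 and 0.244, and none of them changed sign. Without the probes in deviant tiles, 5 of 32 members were again lower and none higher.

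The replicates of the untreated groups differed across the whole list. Untreated δ replicate 1 read above replicate 2 in 28 of 32 members, by 0.13 at the median, and untreated β replicate 2 above replicate 1 in 25 of 32, by 0.13. Relative to each gene's mean over the 8 arrays, the median member stood at 0.11 and 0.00 on the untreated δ arrays and at -0.13 and -0.17 on the treated δ arrays. On the β arrays it stood at 0.05 and 0.16 untreated and at 0.01 and 0.03 treated. The treated δ arrays were the lowest of the 8. Without untreated δ replicate 1 the median member of the δ line differed by -0.09 with doxycycline, and without replicate 2 by -0.30.

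**Figure D4:**
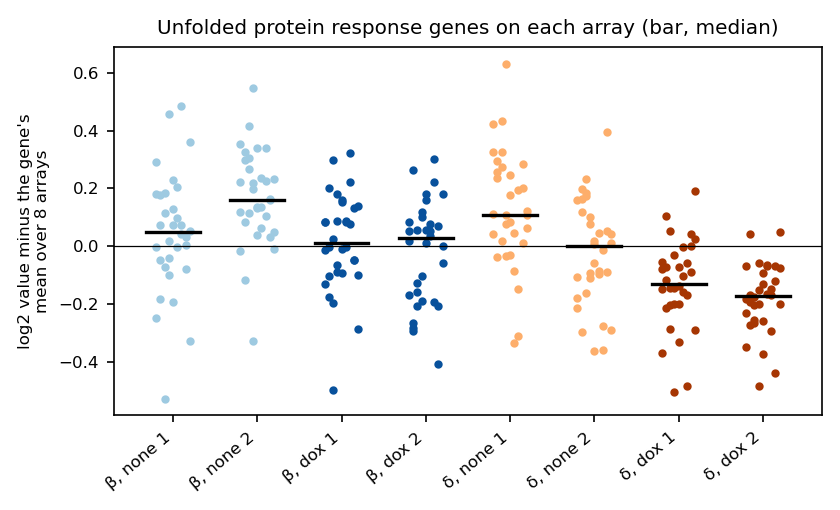
Value of each of the 32 members on each array, as log2 intensity minus that gene's mean over the 8 arrays, with a bar at the median of the members. The medians are -0.13 and -0.17 on the treated δ arrays, 0.11 and 0.00 on the untreated δ arrays, and 0.05 and 0.16 on the untreated β arrays.

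Whether the lines responded differently was tested as the difference of their doxycycline effects. By limma 0 of 32 members were called, against 0.00526% of all genes, and 0 had an unadjusted p under 0.05, against 7.53%. Without untreated δ replicate 2, 1056 genes were called in place of 1, 842 of them higher, and still 0 members. The members farthest apart were Pdia3 (-0.54 ± 0.32, δ minus β), Pdia4 (-0.45 ± 0.27) and Hspa5 (-0.41 ± 0.28) on the lower side, and Dnajb9 (0.23 ± 0.17), Sec24d (0.19 ± 0.20) and Hyou1 (0.17 ± 0.19) on the higher side, with adjusted p of 0.671 or more. Other probes of Dnajb9 and Hyou1 gave the opposite order of the lines, while those of Hspa5 and Pdia3 kept it. The second Dnajb9 probe differed by -0.17 in the β line and by -0.33 in the δ line. The other Hyou1 probes differed by 0.01 and 0.15 in the β line and by -0.31 and -0.39 in the δ line. Among the members that fell, the difference was small beside its error for Manf (0.02 ± 0.12), Dnajc3 (0.02 ± 0.16) and Edem1 (0.03 ± 0.12). For Sec24d (0.19 ± 0.20) and Sdf2l1 (-0.13 ± 0.15) it was within its error but not small beside it. The effect was lower in the δ line for 24 of 32 members against 49.8% of all genes, but for 15 of 32 without untreated δ replicate 1, where the median difference moved from -0.10 to 0.01.

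Between the lines without doxycycline, Herpud1 and Manf were lower in the δ line and no member was higher. These 2 members are 6.25% of the list, near the 5.28% of all genes that were lower (7.93% were higher and 13.2% differed in either direction). Herpud1 was 1.44-fold lower (-0.53 ± 0.12, adjusted p = 0.0365) and Manf 1.34-fold lower (-0.42 ± 0.08, adjusted p = 0.0253). At the other end stood Pdia4 (0.55 ± 0.19, adjusted p = 0.128), Pdia3 (0.54 ± 0.22, adjusted p = 0.184) and Edem2 (0.31 ± 0.09, adjusted p = 0.0863). The median member differed by -0.09 against 0.02 over all genes, and 22 of 32 were below zero against 47%. Herpud1 passed in 6 and Manf in 8 of 17 alternatives, with adjusted p up to 0.193 and 0.198. Which members were called, and in which direction, depended on single untreated arrays. Without δ replicate 2 the members called were Hspa5 (0.56) and Pdia4 (0.82), higher, and Hyou1 (-0.45), lower, where Hspa5 and Hyou1 rest on probes with a spot in a deviant tile on the array that remained. Without β replicate 2 the only one was Pdia3 (0.86), higher, and without δ replicate 1 the only one was Creld2 (-0.65), lower. Herpud1 and Manf were not among the members called there, and the fit without β replicate 1 is not one of those described. Both stayed lower in the δ line whichever array was left out, at -0.68 to -0.38 for Herpud1 and -0.47 to -0.38 for Manf.

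With doxycycline Manf, Herpud1 and Dnajb11 were lower in the δ than in the β line, 9.38% of the list against 5.51% of all genes (9.75% were higher and 15.3% differed in either direction). Herpud1 was 1.39-fold lower (-0.48 ± 0.12, adjusted p = 0.0446), Manf 1.33-fold (-0.41 ± 0.08, adjusted p = 0.0273) and Dnajb11 1.34-fold (-0.42 ± 0.09, adjusted p = 0.0325). In all 3 the treated δ arrays lay below the treated β arrays, and second probes of Herpud1, Manf and Dnajb11 differed by -0.47, -0.35 and -0.41. Both treated δ arrays lay below both treated β arrays in 20 of 32 members (62.5% against 33.1% of all genes), Creld2 lowest at -0.51 ± 0.18 (adjusted p = 0.109), and above them in 3 (35.4% of all genes). The 3 highest were Edem2 (0.29 ± 0.09), Sel1l (0.17 ± 0.15) and Sec24d (0.15 ± 0.14), with adjusted p from 0.0908 up. The median was -0.16 against -0.01 over all genes, and 23 of 32 were below zero against 51%. Of the 17 alternatives, Manf and Dnajb11 passed in 11 and Herpud1 in 8, and none of the 3 without any 1 of the treated arrays.

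Some epithelial markers differed between the lines as well. The summed level of the cortical markers (linear, relative to the 75th percentile) was 28.4 to 32 in the β line and 16.6 to 17.8 in the δ line, and that of the medullary markers 31.1 to 39.4 and 5.24 to 6.34. The sums are weighted to bright keratins: Krt14 was lower in the δ line by 3.74 without and 3.67 with doxycycline (log2), and Krt8 by 1.88 and 2.11. The cortical marker Cxcl12 went the other way, by 0.83 and 0.55. Of 7 tested medullary markers, 3 lay above zero without doxycycline and 0 with it. Plasma cells are a cell type known for a high content of these chaperones. Their markers summed to 2.56 to 3.56 in the β line and 1.41 to 2.48 in the δ line. Their defining genes Jchain and Tnfrsf17 were above background on no array. The sum rests mostly on Sdc1, which read 0.37 to 1.79 (log2) over the arrays, against -5.32 to -3.65 for Mzb1 and Prdm1. In bulk RNA, fewer cells of a type and less RNA per cell cannot be told apart, and the part of these markers in the difference between the lines was not tested. With doxycycline the cortical sum was 28.4 to 28.6 against 29.4 to 32 without in the β line, and 16.8 to 16.9 against 16.6 to 17.8 in the δ line. The fibroblast sum was 570 to 645 against 521 to 554 in the β line and 547 to 552 against 528 to 541 in the δ line. The macrophage and dendritic sum was 21.7 to 24.3 against 17.7 to 20.6 in the β line but 15.7 to 16 against 17 to 19.2 in the δ line. The plasma cell sum was 2.91 to 3.26 against 2.56 to 3.56 in the β line and 1.41 to 1.99 against 2.24 to 2.48 in the δ line. The part of these markers in the doxycycline results was not tested.

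The other genes of the compartment were described from lists drawn up with earlier results known. Over both lines with doxycycline, 0 of 33 other folding genes passed by limma (5 at an unadjusted p under 0.05), 0 of 25 other degradation genes (5), 0 of 31 other import and glycosylation genes (9) and 0 of 16 other regulators of the response (5), with medians of 0, 0, -0.08 and 0. Of all genes, 22.5% had an unadjusted p under 0.05 in this comparison. Of 26 genes of transport between reticulum and Golgi, Kdelr3 and Preb fell (7.69%, against 1.58% of all genes) and none rose (median -0.12). Kdelr3, a receptor that returns escaped chaperones, read 2.16 and 2.12 untreated and 1.62 and 1.31 treated in the β line and 1.34 and 1.38 untreated and 0.50 and 0.64 treated in the δ line (-0.73 ± 0.09, adjusted p = 0.0223). It passed in 10 of 17 alternatives. Preb, the exchange factor that starts the COPII coat to which Sec24d belongs, read 4.24 and 4.15 untreated and 3.70 and 3.61 treated in the β line and 3.93 and 4.05 untreated and 3.77 and 3.79 treated in the δ line (-0.37 ± 0.07, adjusted p = 0.0464). It passed in 5 of 17.

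Genes of the PERK and ATF4 arm were called in the other direction, with 2 of 19 tested genes (of 20 listed) higher with doxycycline and 0 lower (10.5%, against 1.53% of all genes higher), and a median of 0.11. Atf4, the transcription factor of this arm, read 7.48 and 7.63 untreated and 7.86 and 7.94 treated in the β line and 7.10 and 7.02 untreated and 7.56 and 7.55 treated in the δ line. It rose by 0.42 ± 0.07 on the log2 scale (adjusted p = 0.0393). Slc7a11, a cystine transporter, rose by 0.72 ± 0.10 (adjusted p = 0.0332), with a spot in a deviant tile on untreated δ replicate 1. Atf4 passed in 6 and Slc7a11 in 9 of 17 alternatives, and neither without any 1 of the treated arrays. Close to the threshold lay the pseudokinase gene Trib3 (0.36, adjusted p = 0.0502), the phosphatase subunit gene Ppp1r15a (0.40, adjusted p = 0.0536) and Asns, asparagine synthetase (0.55, adjusted p = 0.0592). Not every gene of the arm rose: 3 of 19 lay below zero, down to -0.49, against 46.1% of all genes. At an unadjusted limma p under 0.05, 8 were higher and 1 lower, against 22.5% of all genes in either direction. The difference between this arm and the 32 members was not tested.

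Between the lines, most called genes of this arm were lower in δ. Without doxycycline 6 of 19 genes were lower and 1 higher (31.6% and 5.26%, against 5.28% and 7.93% of all genes), with a median of -0.39: Slc7a11 (-1.46), Atf3 (-1.25), Trib3 (-1.15), Chac1 (-0.86), Ddit3 (-0.62) and Atf4 (-0.50) were lower and Vldlr (1.04) higher, with limma adjusted p between 0.000892 and 0.0241. With doxycycline 5 were lower and 1 higher (26.3% and 5.26%, against 5.51% and 9.75% of all genes), with a median of -0.36: Atf3 (-1.17), Trib3 (-1.03), Slc7a11 (-1.01), Chac1 (-0.64) and Slc3a2 (-0.54) were lower and Vldlr (1.1) higher. Atf3 and Trib3, a transcription factor and a pseudokinase induced by this arm, passed in 17 of 17 alternatives at each treatment.

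**Figure D5:**
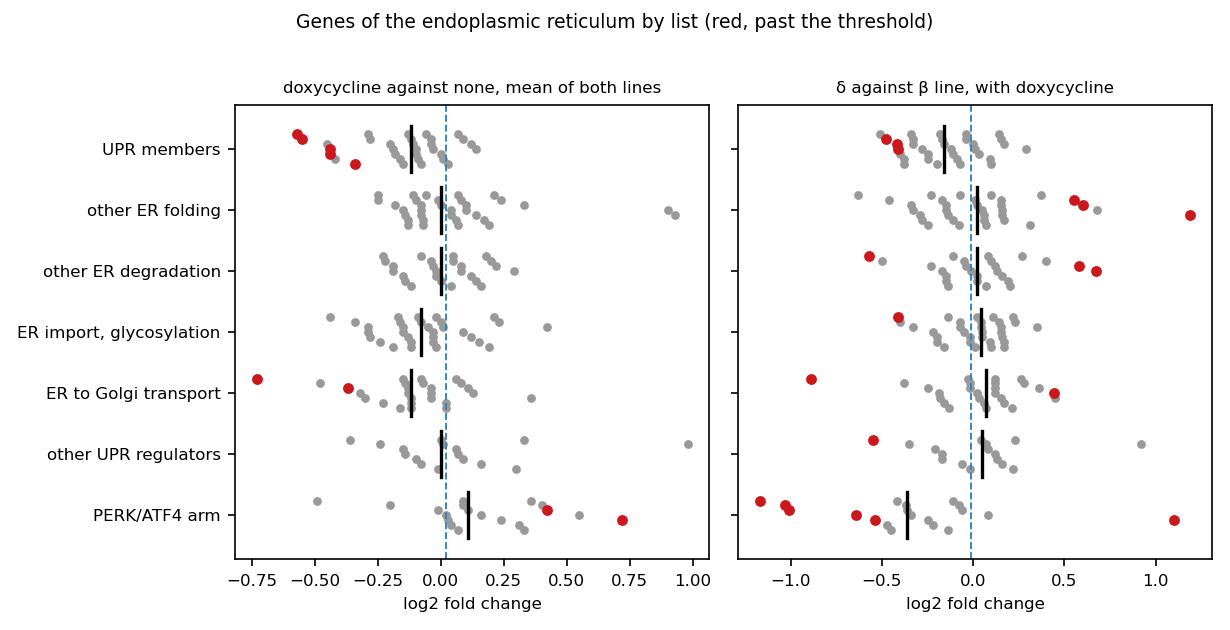
Log2 fold change of each gene (points) in the 32 unfolded protein response members and 6 other lists, for doxycycline over both lines (left) and for δ against β with doxycycline (right). Red marks genes past the threshold, the black bar is the median of a list and the dashed blue line the median of all genes. On the left the members' median of -0.12 lies below that of all genes and the PERK/ATF4 arm's 0.11 above it, and on the right the lowest medians are those of the PERK/ATF4 arm (-0.36) and of the members (-0.16).

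The doxycycline effect is given by promoter motif as a description of the 27 members with a sequence. Inexact copies of a motif were not counted, so members without a match may still hold one. The median over both lines was -0.12 in the 9 members with an exact ERSE and -0.14 in the 18 without one. In the β line it was -0.02 and -0.08, and in the δ line -0.20 in both. For δ against β it was -0.25 with an ERSE and -0.06 without one at doxycycline, and -0.09 and -0.05 untreated. Of the members that fell, Dnajc3 has an ERSE, Sec24d the UPRE, Sdf2l1 and Edem1 none of the 3 motifs in this window, and the window of Manf was not at hand.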

How the data were processed

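RNA of 4 groups of 2 samples was labelled with Cy3 and hybridised to one-colour Agilent mouse arrays. The authors deposited linear intensity values per spot. Per the file headers they were made by version 11.5.1.1 of Agilent Feature Extraction, which subtracted background and removed spatial trends, and they are not normalized between arrays. Its recorded multiplicative detrending was 0 on 3 of the treated arrays and between 0.067 and 0.126 on the other 5. The other deposited columns, set by the same software per the file headers, flag spots that are well above background, saturated or outlying, and no spot was saturated.

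Here the log2 intensity was averaged over unflagged spots of a probe and each array's 75th percentile subtracted. Probes were named through RefSeq accessions (GRCm38.p6). The file headers name mm9, so coordinates are those of the promoter table only. The probes kept (27215) cleared background on each array of 1 group or more, and the brightest per gene was used. limma 3.58.1 (R 4.3.3) fitted 1 mean per group to all 8 arrays (4 residual degrees of freedom), with Benjamini-Hochberg adjustment over 19023 genes. The mean effect averages both lines. The fit was also run on simulated data, with planted changes larger than the falls of the members. That run therefore says nothing on effects of their size.

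The members, lists and tests were chosen with earlier results of these data known. Values on every array are given for members past the threshold in any comparison, the described TFII-I targets, the sensors, and the 3 highest and lowest members of each comparison. Arrays of a group correlated at 0.965 to 0.997 across genes, none were identical, and replicate numbers only name them. The alternatives are in the closing section; normexp used the median spot signal.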

Additional observations from a re-analysis of the deposited data

How the results depend on the processing

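The number of members past the threshold by limma moved with most settings, and no member called in the reported fit changed sign. Over both lines the 5 members became 1 with median centring, 2 with the mean over probes and 0 with the slide column as a replicate block, and 0 to 7 when 1 array was left out. In the β line the count of 0 became 1 (Manf) when probes had to clear background on all arrays, with an intensity trend and without probes in deviant tiles, and stayed 0 when 1 array was left out. In the δ line it became 1 (Manf) without a filter on dim probes, and 0 to 1 when 1 array was left out. Between the untreated lines the count of 2 became 0 with median centring, 1 without the filter, 0 with only the arrays compared and 0 to 3 when 1 array was left out, where the members called and their direction changed: 2 higher and 1 lower without δ replicate 2, and 1 higher without β replicate 2. Between the treated lines the 3 members became 0 with median centring, 5 with quantile normalization, 1 with normexp, 6 with only the arrays compared and 0 to 4 when 1 array was left out. The difference between the lines' effects gave 0 members in every setting run. A group left with 1 array is assumed to vary like the others. Of the 5 members called between the treated lines with quantile normalization, 4 were lower in the δ line and 1, Edem2, was higher.

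No label says that the slide column pairs arrays. Under that block the calls among all genes over both lines went from 593 to 1. Between the lines the block could not be fitted, because no column holds both lines. Median centring left 182 calls over both lines, and 14 in place of 47 in the β line. There the share of higher calls was 46.8%, against 28.6% with median centring, 28.3% with quantile normalization and 31.6% with normexp. In the δ line it was 28.6% of 14 calls, against 11.1% with quantile normalization, 0% with normexp (5 calls) and 10.7% of 803 calls without the filter on dim probes. It was 82.7% of 1621 calls without untreated δ replicate 2, and 66.7% and 75% of 3 and 4 calls without a treated δ array. The cause of these changes was not tested, and 2 arrays per group limit the precision.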

Other observations

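Genes of the other endoplasmic reticulum lists that differed between the lines by limma, as log2 fold change of δ against β, included members of each list. At each treatment 3 of 33 other folding genes were called, while 13.2% of all genes differed without and 15.3% with doxycycline. Among folding genes, Sil1, an exchange factor for BiP, was higher in the δ line without (1.17 ± 0.12) and with (1.19 ± 0.12) doxycycline, as was the BiP co-chaperone gene Dnajc1 (0.46 ± 0.09 and 0.60 ± 0.09). Fkbp7, a prolyl isomerase gene, was higher with doxycycline (0.55 ± 0.12), and Dnajc10, a disulfide reductase gene, lower without it (-0.46 ± 0.09). The Dnajc10 difference ranged from -0.49 to -0.12 over 17 alternatives. It did not pass with the mean over probes, median centring, normexp or only the arrays compared. Among degradation genes, the conjugating enzyme gene Ube2g2 was lower at both treatments (-0.73 ± 0.13 and -0.57 ± 0.13) and Ngly1, which removes glycans from misfolded proteins, higher at both (0.47 ± 0.10 and 0.67 ± 0.10). Rnf5, a ligase gene, was higher with doxycycline (0.58 ± 0.12), and Sel1l3 lower without it (-0.57 ± 0.14).

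Sec63, a translocation partner of BiP, was lower in the δ line at both treatments (-0.50 ± 0.10 and -0.41 ± 0.10), as was Kdelr3 (-0.78 ± 0.13 and -0.89 ± 0.13), and the COPII gene Sec24c was higher with doxycycline (0.44 ± 0.10). Of the regulators, Wfs1 was lower at both treatments (-0.51 ± 0.11 and -0.55 ± 0.11) and Creb3l1 higher without doxycycline (0.39 ± 0.09). Creb3l3 was higher without doxycycline (1.82 ± 0.40), with a spot in a deviant tile on untreated δ replicate 1. Without doxycycline, Creb3l3 passed in 6 of 15 alternatives, and Sel1l3, Creb3l1 and Ngly1 in 6 of 17 each.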
